A study of Mus musculus with 4 samples.

Results

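Macrophages of 2 origins meet in tumor-bearing brain, and they were compared here after whole brain radiation therapy (WBRT) in cells sorted as BMDM, which usually stands for macrophages derived from bone marrow, or as microglia. The comparison rests on 413 wells, each meant to hold 1 sorted cell, of 804 wells kept in all 4 plates of the series. The wells were chosen by depth and not by expression. A well was kept when it had at least 1000 counts outside spike-in and mitochondrial rows and when the ERCC spike-ins, synthetic RNAs added to each well, took under 50% of its counts. This kept 262 of 384 wells of the BMDM plate and 151 of 384 wells of the microglia plate.

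Both plates came from brains of tumor-bearing Balb/C athymic nude mice (CAnN.Cg-Foxn1nu/Crl), a strain without a functional thymus, so the host lacks mature thymus-derived T cells. Their WBRT label reads d3/5x2 Gy, that is 5 fractions of 2 Gy, and it does not say from when day 3 is counted. Their tumor stage is labelled not stratified. A second pair of plates, BMDM and microglia of the same strain without WBRT and with the stage label small, is used only side by side, and stage, plate and WBRT cannot be told apart there. With 1 plate for each group and no animal given for any well, nothing is replicated; no test was made, and every difference is between 2 libraries. Intervals below are at 95%, apart from wider ones of log2 ratios described with the processing, and cover counting error only. The same well names recur on every plate by design, so wells are kept apart by plate.

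Microglia settle in the brain before birth and maintain themselves there, and they are known by a set of genes that includes P2ry12, Tmem119, Sall1 and Siglech. Macrophages that arise from bone marrow enter the brain as Ccr2-bearing monocytes, mature in the tissue, and can present antigen to T helper cells on MHC class II. In brain tumors the expression programs of both can overlap.

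Depth differed between the plates. Kept BMDM wells had a median of 8894 endogenous counts and 2755 genes, and kept microglia wells had a median of 2546 counts and 927 genes. The ERCC share was 7.86% in the median BMDM well and 30.6% in the median microglia well, and endogenous counts per ERCC count were 11.7 and 2.27. Levels are therefore given as CPM, a gene's count scaled to a common total of all endogenous counts of a plate, and shares of wells are given after every well was thinned to 1000 UMIs (unique molecular identifiers, 1 per captured transcript). CPM is a share of a library's RNA. On a scale of counts per spike-in count every log2 ratio of BMDM over microglia moves up by 1.56, and 93.1% of the genes that were higher in microglia by CPM would then be higher in BMDM. In pooled libraries, fewer cells with a transcript and fewer transcripts per cell cannot be told apart from CPM alone.

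Sort markers were counted in each well with 8 core microglia genes (P2ry12, Tmem119, Sall1, Siglech, Olfml3, Sparc, Gpr34 and P2ry13) and with H2-Aa, H2-Ab1, H2-Eb1, Cd74 and Ccr2. Microglia wells held a median of 5 core microglia UMIs per 1000, with a highest value of 30, and BMDM wells a median of 0, with a highest value of 16. The MHC class II and Ccr2 sum had a median of 14.5 in BMDM wells and 0 in microglia wells. At least 2 core microglia UMIs were found in 118 microglia wells (78.1%) and in 38 BMDM wells (14.5%). Those 38 wells held 55.8% of the core microglia counts of the BMDM plate. At least 5 UMIs of the MHC class II and Ccr2 set were found in 203 BMDM wells (77.5%) and in 2 microglia wells (1.32%), which held 41.2% of the MHC class II counts of their plate. One of these 2 wells carried both sets, with 8 core microglia UMIs and 101 MHC class II and Ccr2 UMIs. The limits of 2 and 5 UMIs are unequal, so these shares of wells with the other sort's markers are not on 1 scale. No UMI of the other sort's set was found in 62.2% of BMDM wells and 69.5% of microglia wells. By these short sets most wells matched their label, and a minority in each plate carried markers of the other sort. Both sets hold genes among those furthest apart between these same plates, so this match describes the wells and is no independent check. The full identity lists of 18 genes each gave another count: 162 BMDM wells (61.8%) and 2 microglia wells (1.32%) held more UMIs of the other sort's list than of their own. The microglia list includes Cst3 and Csf1r, which macrophages in general express. Doublets were not called, because the protocol sorted cells singly into wells. Whether wells with markers of both sorts held more than 1 cell was not tested.

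**Figure D1:**
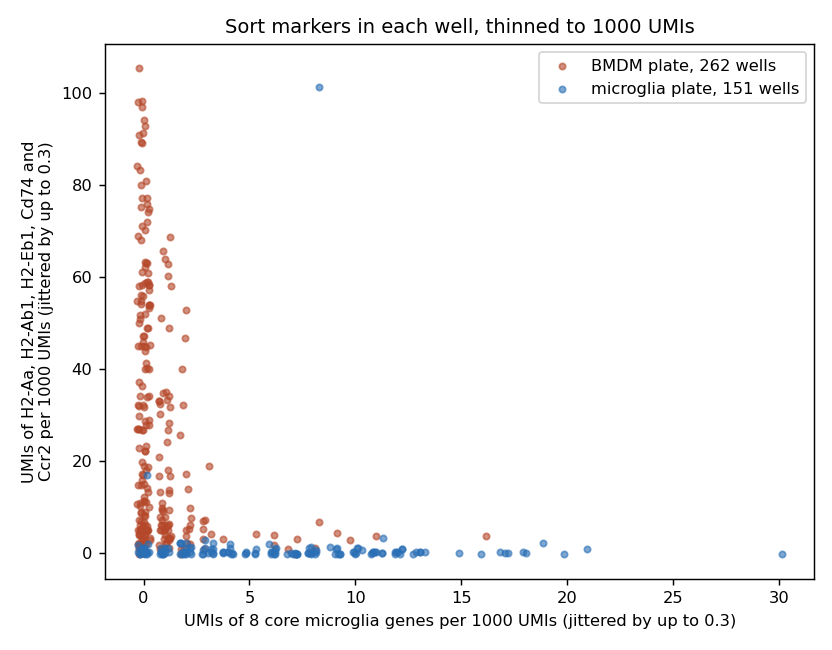
Each point is 1 kept well thinned to 1000 UMIs. The x axis is the UMI sum of the 8 core microglia genes, the y axis the UMI sum of the 4 MHC class II genes and Ccr2, both jittered by up to 0.3. BMDM wells (red) lie along the y axis with a median of 14.5, microglia wells (blue) along the x axis with a median of 5, and 1 microglia well stands at 8 and 101.

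Among 3679 genes of at least 50 CPM in 1 plate, the log2 ratio of CPM + 5 (BMDM over microglia) had a median of 0.08. At least 2-fold higher levels in BMDM were found for 303 genes (8.24%) and at least 2-fold higher levels in microglia for 244 genes (6.63%). Taking any size of difference, 55.4% of the genes were higher in BMDM and 44.6% in microglia. Counts of list members below stand against these shares. After thinning, 423 of the 547 genes past 2-fold were still at least 2-fold apart in the same direction and 12 pointed the other way. The 20 genes with the highest ratios under the rule for named genes held Ccr2, Plac8, Cytip, Runx3, Emb, Cd93 and Tgfbi, and 6 MHC class II genes. The 20 lowest held Siglech, Sparc, P2ry12 and Cxcl13, along with astrocyte genes that came mostly from 1 well.

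**Figure D2:**
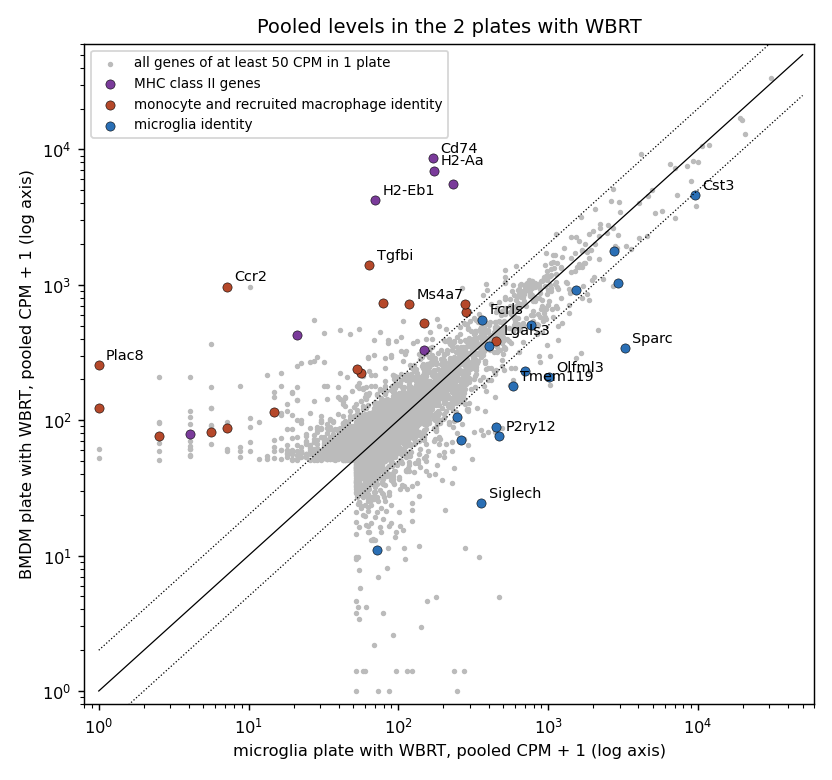
Pooled CPM + 1 in the BMDM plate (y axis) against the microglia plate (x axis), both with WBRT, on log axes. Grey points are the 3679 genes tested, coloured points are 3 gene lists, the solid line marks equal levels and the dotted lines a 2-fold difference. MHC class II genes (purple) and 15 of 16 recruited macrophage genes (red) lie above equality and 16 of 17 microglia genes (blue) below it; scaled to spike-ins all points would move toward BMDM.

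The monocyte and recruited macrophage identity list had 18 genes, of which 16 reached 50 CPM in 1 plate. Of these, 15 were at least 2-fold higher in BMDM, against a background of 8.24%, and none was that much higher in microglia. The median log2 ratio was 2.85, with member intervals centred on 1.98 to 3.58, and it was 2.79 after thinning. Ccr2, the receptor for the chemokine Ccl2 that lets monocytes leave the marrow (chr9:124101918-124109140 in GRCm38), stood at 969 CPM (931 to 1009) in BMDM and 6.16 CPM (1.68 to 15.8, 4 counts) in microglia. This is a 157-fold difference (61.4 to 578). At equal depth 44.7% of BMDM wells and no microglia well had a Ccr2 UMI; 0 of 151 wells allows a share of up to 2.41% of wells with a UMI at this depth, which is no limit on wells that express the gene. Before thinning, 1.32% of microglia wells held a Ccr2 count. Plac8, a small cysteine-rich protein of monocytes and neutrophils, was at 254 CPM in BMDM and at 0 counts in microglia, at least 55.0-fold higher against a floor of 3 counts. Ahnak, a very large scaffold protein, was at 122 CPM and 0 counts, at least 26.4-fold higher.

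Tgfbi, a matrix protein induced by TGF-beta, was at 1388 CPM (1342 to 1435) in BMDM and 63.2 CPM (45.3 to 85.7) in microglia. Its UMIs were seen in 51.5% of thinned BMDM wells and 6.62% of microglia wells. Ms4a7, a membrane protein of tissue macrophages of marrow origin, was at 715 and 117 CPM. The integrin chain Itga4, which pairs with beta integrins to bind VCAM1 on vessels, was at 223 and 55.5 CPM. The hyaluronan receptor Cd44 was at 236 and 52.4 CPM, and the matrix protein fibronectin (Fn1) at 721 and 280 CPM. The exception was the galectin Lgals3, with 386 CPM and 450 CPM in the same order. Thus Itga4 and Tgfbi were well apart between the plates, and Lgals3 leaned slightly to microglia, though to BMDM (log2 1.30) without wells under 1000 CPM of the nuclear RNA Malat1.

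MHC class II genes showed the widest gap of any role list. The list had 9 genes, of which 7 reached 50 CPM. All 7 of those were at least 2-fold higher in BMDM, against 8.24% of all genes tested. Their median log2 ratio was 4.57 pooled and 3.78 after thinning. H2-Aa and H2-Ab1 encode the alpha and beta chains of I-A and H2-Eb1 the beta chain of I-E, the molecules that show peptides to T helper cells. H2-Aa was at 6947 CPM (6844 to 7050) in BMDM and 172 CPM (141 to 206) in microglia. H2-Eb1 was at 4209 CPM (4129 to 4290) and 69.4 CPM (50.6 to 92.8), a 60.7-fold difference (45.3 to 83.3). Cd74, the invariant chain that fills the groove until a peptide is loaded, was at 8594 and 170 CPM. H2-Ab1 was at 5580 and 230 CPM. The low microglia values rested on few wells: 1 well held 55.1% of the H2-Aa counts, 50.1% of the Cd74 counts and 31.0% of the H2-Ab1 counts.

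The peptide editor genes H2-DMb1 (425 and 20.03 CPM) and H2-DMa (328 and 148 CPM) differed less evenly, with log2 ratios of 4.10 and 1.13. H2-Ea-ps, annotated as a pseudogene because the reference strain carries a defective I-E alpha gene, was at 962 and 9.24 CPM. BALB/c mice express an intact I-E alpha chain from this locus. Ciita, the coactivator that switches MHC class II promoters on, was at 78.4 CPM in BMDM wells, against 2 counts in microglia wells, a ratio of 25.4 (6.95 to 212). Over thinned wells, 86.3% of BMDM wells and 9.93% of microglia wells had an H2-Aa UMI, and without thinning the shares were 100% and 26.5%.

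The promoters of this family share a module of short boxes through which Ciita acts, and the sequences of a pair of members are shown because they were among the genes furthest apart between the sorts. They are the 120 bases before the annotated start, from RefSeq in GRCm38.p6, at chr17:34287824-34287943 on the minus strand for H2-Aa and chr17:34305747-34305866 on the plus strand for H2-Eb1. Capitals mark the Y box, searched as CTGATTGG on both strands.
H2-Aa: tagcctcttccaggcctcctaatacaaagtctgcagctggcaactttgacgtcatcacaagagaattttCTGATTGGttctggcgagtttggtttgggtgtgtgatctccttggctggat
H2-Eb1: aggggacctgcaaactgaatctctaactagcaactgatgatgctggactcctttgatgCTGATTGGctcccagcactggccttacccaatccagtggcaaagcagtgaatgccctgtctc
The box begins 51 bases before the start in H2-Aa and 62 bases before it in H2-Eb1. In windows from 250 bases before to 50 after the start it was found in 4.10% of 32851 promoters, in 4.67% of those of genes tested, in 5.06% of those of genes at least 2-fold higher in BMDM and in 5.11% of those higher in microglia. The core of the interferon-stimulated response element was in 3.44%, 3.33%, 4.75% and 2.55% of the same sets, and GAGGAAGT, letters bound by PU.1, searched likewise on both strands, in 3.20%, 4.28%, 4.11% and 4.68%. These are descriptions of letters, not of binding.

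MHC class I differed far less than class II. Of 13 class I and peptide loading genes in the files, 10 reached 50 CPM. All 10 were higher in BMDM by CPM (55.4% of all genes tested) and 2 at least 2-fold (8.24%). The median log2 ratio was 0.45. The light chain B2m was at 4081 and 2978 CPM and the heavy chain H2-K1 at 1152 and 1034 CPM. The immunoproteasome subunit Psmb9 (67.7 and 26.2 CPM) and the peptide transporter Tap1 (58.1 and 21.6 CPM) were furthest apart. H2-T23, at 56.5 and 52.4 CPM, had a log2 ratio of -0.25 after thinning. B2m UMIs were in 95.04% of thinned BMDM wells and 90.7% of thinned microglia wells. Per RNA, class I thus set the sorts apart little.

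Interferon response genes leaned toward BMDM. Of 24 listed, 15 reached 50 CPM. Among these, 11 were higher in BMDM (55.4% of all genes tested) and 6 at least 2-fold (8.24%). The median was 0.81, with member intervals centred on 0.07 to 1.56, and it was 0.46 without wells low in Malat1. Ifitm3, which blocks viral entry, was at 727 CPM (694 to 761) and 78.6 CPM (58.5 to 103). Ifi27l2a was at 392 and 84.7 CPM, the RNA sensor family member Oasl2 at 174 and 38.5 CPM, and the transcription factor Irf7 at 146 and 43.1 CPM. The IFIT genes did not share this direction. Ifit2 was at 48.2 and 89.5 CPM and Ifit3 at 41.8 and 70.9 CPM, while Ifit1 was at 49.8 and 58.6 CPM and turned to BMDM after thinning (log2 0.92). No cause of this mix was tested.

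Of the lineage transcription factors, 18 of 21 reached 50 CPM. Of these, 9 were higher in BMDM (55.4% of all genes tested) and 9 in microglia (44.6%). The median was 0.06, and it was -0.34 without wells low in Malat1. Runx3, a Runt-domain factor of lymphocytes and monocyte-derived cells, was at 208 CPM (191 to 227) in BMDM wells, against 1 count in microglia wells, a ratio of 135 (24.1 to 5346). Bhlhe40, a repressor of clock and metabolic genes, was at 68.5 and 9.24 CPM. The microglia factor Sall1 was at 9.95 and 70.9 CPM, and Bhlhe41, a relative of Bhlhe40, at 71.2 and 188 CPM. These relatives thus pointed in opposite directions. Klf2 was higher in microglia (241 and 568 CPM) and Cebpb in BMDM (637 and 296 CPM). The macrophage master factor PU.1, listed as Sfpi1, was close in both at 412 and 342 CPM. Smad3, a transducer of TGF-beta signals, was at 60.5 and 139 CPM pooled, but its log2 ratio was 0.04 after thinning.

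Chemokine receptors, Ccr2 among them, gave a mixed pattern. Of 9 tested genes, 4 were higher in BMDM (55.4% of all genes tested), and the median was -0.02. Cxcr4, the receptor for the retention signal Cxcl12, was at 461 CPM (435 to 488) and 40.1 CPM (26.2 to 58.7). Ccrl2, which binds chemerin, was at 553 and 179 CPM. Cx3cr1, the fractalkine receptor used to mark microglia, was at 920 and 1539 CPM, so it was abundant in both sorts. The complement receptors C3ar1 (698 and 714 CPM) and C5ar1 (211 and 324 CPM) lay closer together. After thinning the list median was 0.96.

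Matrix and vessel genes lay on both sides. In a list of 18 growth factor, angiogenic and matrix genes, 13 reached 50 CPM. Of these, 5 were at least 2-fold higher in BMDM (8.24% of all genes) and 4 in microglia (6.63%). The median was -0.52, but 0.58 over members of at least 100 CPM and 0.037 without wells low in Malat1. Thbs1, which activates TGF-beta and restrains vessel growth, was at 179 and 7.70 CPM (5 counts). Vegfa, the main growth factor of endothelium, was at 262 CPM (242 to 283) and 21.6 CPM (11.8 to 36.2), a 12.1-fold difference. The collagenase Mmp14 was at 321 and 111 CPM. On the other side stood Sparc, the growth factor Igf1 (119 and 285 CPM) and Vegfb (25.5 and 66.2 CPM). Thus the related growth factors Vegfa and Vegfb pointed in opposite directions by CPM. Scaled to spike-ins Vegfb and Igf1 would turn to BMDM.

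Among S100 proteins and annexins, calcium-binding regulators of membranes and the cytoskeleton, 12 of 15 genes in the files reached 50 CPM. Of these, 10 were higher in BMDM (55.4% of all genes tested) and 5 at least 2-fold (8.24%). The median was 0.81. Anxa1, an anti-inflammatory annexin, was at 94.3 CPM and 1 count, S100a4 at 74.9 CPM and 1 count, and S100a11 at 266 and 24.6 CPM. Anxa3 (157 and 274 CPM) and S100a1 (43.4 and 75.5 CPM) were higher in microglia. Anxa7 turned from 0.24 to -1.69 after thinning. Actin cytoskeleton genes were mostly close by pooled CPM: all 18 listed reached 50 CPM, with a median of 0.31. The median was 0.11 after thinning and 0.79 without wells low in Malat1. At least 2-fold higher were 3 genes in BMDM (8.24% of all genes) and 2 in microglia (6.63%). The former were Lsp1 (157 and 18.5 CPM), Tmsb10 (411 and 103 CPM) and Vim (626 and 281 CPM). The actin gene Actb itself was at 7754 and 6513 CPM.

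Adhesion molecules again fell on both sides, with a median of -0.61. Of 15 tested genes, 4 were at least 2-fold higher in BMDM (8.24% of all genes) and 4 in microglia (6.63%). Itgal (63.7 and 3.08 CPM, 2 counts), Itga4, Cd44 and Itgax (171 and 53.9 CPM) were higher in BMDM. The tetraspanin Cd81 was at 313 CPM (291 to 335) and 1645 CPM (1548 to 1747), and 22.1% and 60.3% of thinned wells had its UMI. Selplg, the ligand of P-selectin and a gene of the microglia list, was at 229 and 697 CPM, and the tetraspanin Cd9 at 163 and 382 CPM. Itgam, which encodes CD11b, was at 558 and 965 CPM.

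Genes of border-associated macrophages, which line vessels and meninges, were higher in the BMDM plate. Of 8 listed, 6 reached 50 CPM, 5 were at least 2-fold higher in BMDM (8.24% of all genes), and the median was 2.68. F13a1 was at 435 and 46.2 CPM, the mannose receptor Mrc1 at 373 and 84.8 CPM, and the platelet factor Pf4 at 388 and 67.8 CPM. Defining members of the list were close to absent: Cd163 was at 5.58 and 7.70 CPM and Lyve1 at 1.99 and 6.16 CPM. The scavenger and alternative activation list had a median of 0.28 over 8 of 15 genes. Arg1, the arginase of alternatively activated macrophages, was at 60.5 CPM and 2 counts. The apoptotic cell receptors Axl (539 and 470 CPM) and Mertk (39.0 and 86.3 CPM) differed little or the other way.

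The microglia identity list also had 18 genes, of which 17 reached 50 CPM. Of these, 16 were higher in microglia by CPM (44.6% of all genes tested) and 12 at least 2-fold, against a background of 6.63%. The median log2 ratio was -1.59 and stayed at -1.53 after thinning. Per spike-in count it was -0.03 with the pooled scale and 0.78, toward BMDM, with the scale of the median well, so the direction toward microglia is one of shares of RNA. Siglech, an inhibitory sialic acid receptor, was at 23.5 CPM (17.9 to 30.3) in BMDM and 358 CPM (313 to 406) in microglia, a 15.2-fold difference (11.4 to 20.6). Sparc, a secreted collagen-binding protein of resting microglia, was at 341 CPM (318 to 364) and 3266 CPM (3128 to 3408). The ADP receptor P2ry12, which guides microglial processes to injury, was at 75.2 and 466 CPM. Olfml3 was at 206 and 1017 CPM, P2ry13 at 87.6 and 449 CPM, and Tmem119 at 177 and 583 CPM.

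Shares of wells showed the same order for these genes. Sparc UMIs were in 78.1% of thinned microglia wells and 11.5% of BMDM wells, Olfml3 UMIs in 43.0% and 12.2%, and P2ry12 UMIs in 29.1% and 5.73%. Other members of the list did not set the sorts apart as clearly. Cst3 (4597 and 9599 CPM), the receptor Csf1r (1772 and 2753 CPM) and Trem2 (504 and 765 CPM), a lipid receptor, were abundant in both plates. Fcrls, an Fc receptor-like gene described in microglia, was the exception at 551 CPM (522 to 581) in BMDM and 361 CPM (316 to 410) in microglia.

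Beyond the lists, the genes furthest toward microglia included Adamts1, a protease of the matrix, at 8.77 and 345 CPM, with 29.3% of the microglia counts from 1 well. Lrrc3 was at 10.7 and 136 CPM, the tetraspanin Tspan7 at 8.36 and 110 CPM, and the sialomucin Cd34 at 20.7 and 205 CPM. The protease Capn3 was at 10.4 and 108 CPM, the organic anion carrier Slco4a1 at 7.16 and 83.2 CPM, and the sphingosine-1-phosphate exporter Spns2 at 2.39 and 53.9 CPM. The adhesion receptor Gpr56 (17.1 and 123 CPM), the nicotinic acid receptor Niacr1 (14.3 and 106 CPM) and the carbohydrate-sensing factor Mlxipl (33.4 and 228 CPM) completed this group with Ecscr, Whrn and Arhgap5. On the BMDM side the remaining members were Gda, Il1r2, Gpr132 and Plbd1. Plbd1, a lysosomal phospholipase, was at 206 CPM and 2 counts, and Il1r2, the decoy receptor for interleukin 1, at 105 CPM and 2 counts. Cytip, an adaptor that controls integrin adhesion, was at 364 CPM and 3 counts, a ratio of 78.8 (26.9 to 383), and Emb, a basigin relative, at 175 CPM and 3 counts.

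**Figure D3:**
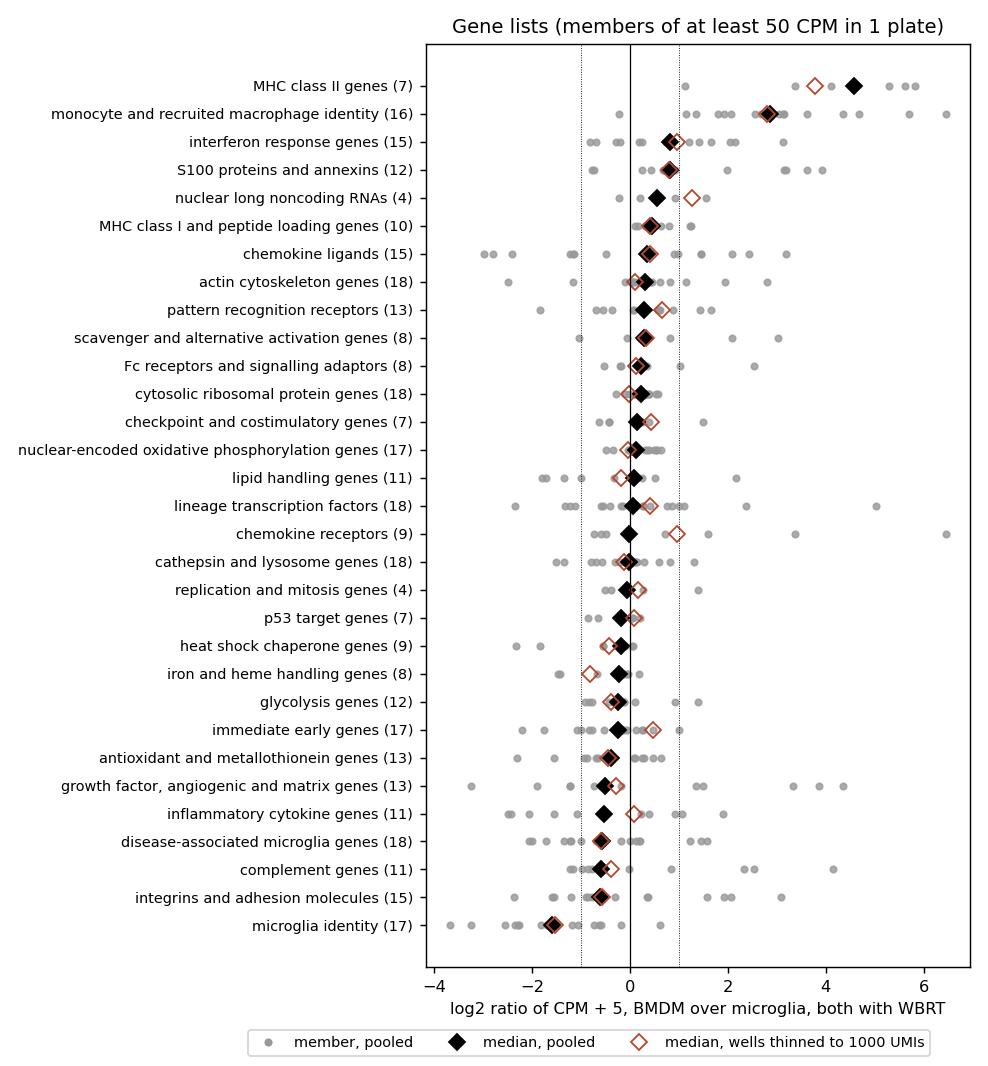
Each row is a gene list with its number of tested members in brackets; grey points are members' log2 ratios of CPM + 5 (BMDM over microglia), black diamonds the pooled medians and open red diamonds the medians after thinning each well to 1000 UMIs. MHC class II (4.57) and recruited identity (2.85) lie highest and microglia identity (-1.59) lowest; immediate early genes move from -0.25 to 0.46 and inflammatory cytokine genes from -0.54 to 0.08 with thinning. All values would move up by 1.56 per spike-in count, which would turn the plotted lists with negative medians other than microglia identity (-0.03) to BMDM, and microglia identity too with the scale of the median well (0.78).

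Chemokine ligands lay on both sides. Of 19 listed, 15 reached 50 CPM. Among these, 5 were at least 2-fold higher in BMDM (8.24% of all genes) and 6 in microglia (6.63%). The median was 0.34, or -0.073 over members of at least 20 CPM. Cxcl13, which attracts B cells through Cxcr5, was at 230 CPM (212 to 250) in BMDM and 1862 CPM (1759 to 1971) in microglia. Its UMIs were in 4.20% and 29.1% of thinned wells, and 45.1% of the BMDM counts came from 1 well. Ccl12, a mouse ligand of Ccr2, was at 287 CPM (266 to 308) and 1540 CPM (1445 to 1638), and Ccl2, another ligand of that receptor, at 132 and 297 CPM. So these ligands of Ccr2 were higher in the plate with 4 counts of the receptor, although per spike-in count Ccl2 would turn to BMDM. The inflammatory chemokine Ccl4 was at 492 and 1156 CPM. Toward BMDM lay Ccl9 (302 and 67.8 CPM), Ccl6 (306 and 109 CPM), and the neutrophil attractants Cxcl1 (96.0 and 6.16 CPM) and Cxcl2 (450 and 161 CPM, with 73.2% of the microglia counts from 1 well).

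Inflammatory cytokine genes had 11 of 18 members tested, with a median of -0.54. At least 2-fold higher were 2 in BMDM (8.24% of all genes) and 5 in microglia (6.63%). Tnf was at 180 CPM (163 to 197) in BMDM and 1033 CPM (957 to 1115) in microglia, and Il1a at 86.1 CPM (74.9 to 98.2) and 489 CPM (437 to 547). Il1b went the other way, at 2353 CPM (2294 to 2414) and 1122 CPM (1042 to 1206). The interleukin 1 genes were thus split between the sorts. Spp1, which encodes osteopontin, was at 1928 and 2809 CPM, and the feedback inhibitor Nfkbiz at 392 and 1161 CPM. Nfkbia, another inhibitor of NF-kappaB, was at 797 and 1686 CPM pooled, but its log2 ratio was 0.08 after thinning. Ptgs2, the inducible prostaglandin synthase, was at 93.6 and 21.6 CPM.

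Immediate early genes, which are transcribed within minutes of a stimulus including tissue handling, gave different answers pooled and per well. Pooled, 12 of 17 tested genes were higher in microglia (44.6% of all genes tested) and the median was -0.25. After thinning the median was 0.46, toward BMDM. Fos was at 2625 CPM (2563 to 2690) and 2726 CPM (2601 to 2857), so pooled levels were nearly equal, yet 81.3% of thinned BMDM wells and 39.1% of thinned microglia wells held a Fos UMI. Btg2 gave 1335 and 1223 CPM beside 64.1% and 21.9% of wells, and Egr1 1098 and 2327 CPM beside 54.2% and 28.5%. Jun and Rhob kept their direction: Jun was at 464 and 2160 CPM and in 24.8% and 42.4% of wells, and Rhob at 297 and 1022 CPM and in 17.6% and 31.1% of wells.

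**Figure D4:**
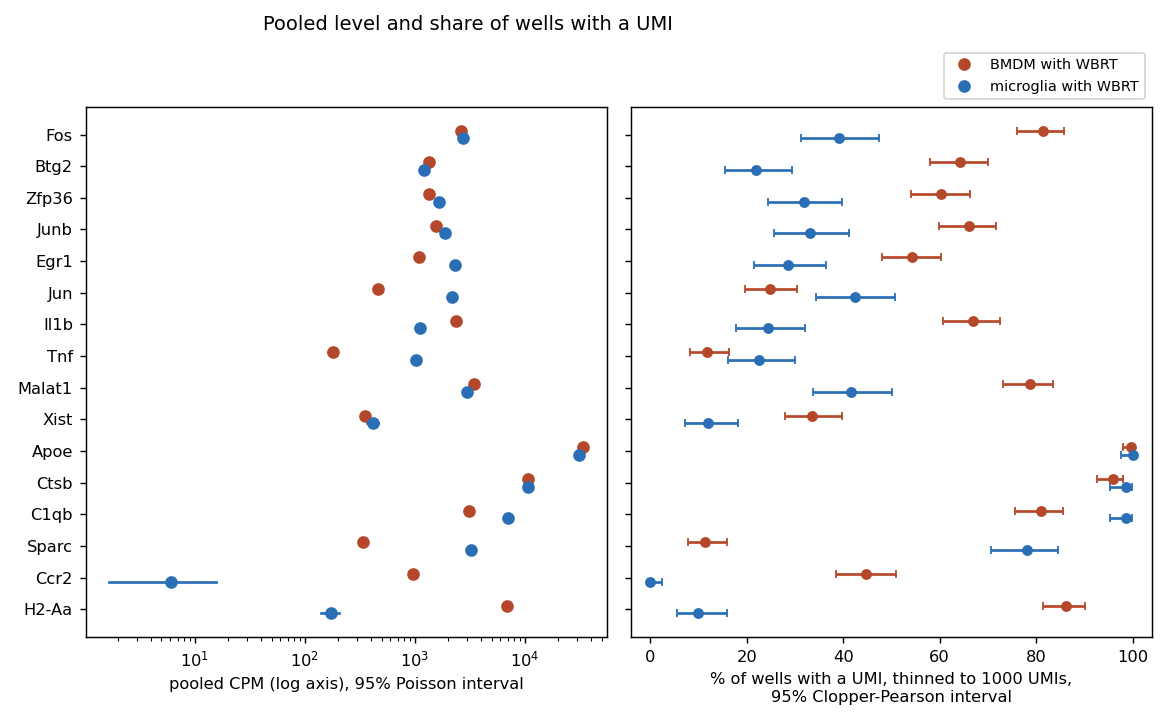
Left, pooled CPM with 95% Poisson intervals on a log axis; right, the share of wells with a UMI after thinning to 1000 UMIs with 95% Clopper-Pearson intervals, for 16 genes in the BMDM (red) and microglia (blue) plates with WBRT. Fos is nearly equal on the left (2625 and 2726 CPM) and apart on the right (81.3% and 39.1%), while Sparc, Ccr2 and H2-Aa are apart in both panels; directions on the left are shares of RNA, not amounts per spike-in.

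Wells were also divided by Malat1, an abundant noncoding RNA of the nucleus. It was under 1000 CPM in 59 BMDM wells (22.5%) and in 106 microglia wells (70.2%), and 69 and 27 wells lay between 500 and 2000 CPM, so the limit cuts a range. The limit was known from earlier results of these data. The 45 microglia wells above it held 50.5% of the plate's counts, with a median of 7147 counts per well against 2298 below it, and endogenous counts per ERCC count of 7.72 against 2.03. They held 90.5% of the Fos counts, 94.4% of the Egr1 counts, 98.1% of the Xist counts and 91.0% of the Tnf counts of the microglia plate. Fos was at 4885 CPM in these wells and 525 CPM in the others. In BMDM wells the same limit gave 2773 and 1589 CPM. Nuclear noncoding RNAs, 4 of which were tested, had a median of 0.56 pooled and 1.27 after thinning, and Xist was at 355 and 415 CPM pooled but in 33.6% and 11.9% of thinned wells.

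Restricted to the 203 BMDM and 45 microglia wells with Malat1 of at least 1000 CPM, the immediate early median was -1.09 and the cytokine median -0.57. The identity lists held: recruited identity was at 3.70, MHC class II at 5.59 and microglia identity at -1.75. Sparc was similar in both kinds of microglia wells, at 3154 and 3380 CPM, as was Cst3, at 9365 and 9838 CPM. Microglia identity genes summed to 25937 CPM in microglia wells above the limit and 25632 CPM below it. Recruited identity genes summed to 815 CPM above it and 2312 CPM below it. MHC class II genes summed to 384.5 and 1258 CPM, with 34.7% of their counts in the plate from 1 well. In the microglia plate, wells with little Malat1 thus had lower Fos, Egr1 and Tnf levels and similar levels of Sparc and Cst3. Their levels of recruited identity and MHC class II genes were higher. The part of depth and RNA quality in this was not tested.

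The opposite group of genes was higher in wells with little Malat1. The light chain of ferritin, Ftl1, was at 12898 and 20731 CPM in the pooled BMDM and microglia plates, and in microglia it was at 11407 CPM in wells above the limit and 30240 CPM below it. The heme oxygenase Hmox1 was at 979 and 2729 CPM pooled, and at 1055 and 4435 CPM in the same split. Of 8 tested iron and heme genes 7 were higher in microglia (44.6% of all genes tested), with a median of -0.22. In Malat1-retaining wells the median was 0.36, toward BMDM. The iron exporter Slc40a1 was at 121 and 335 CPM, and it followed the split in the BMDM plate too, with 51.4 CPM above and 611 CPM below the limit. So for iron genes the difference between sorts was smaller than that between wells of 1 sort.

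Disease-associated microglia genes, a set described in neurodegeneration, had a median of -0.57 over all 18 members. At least 2-fold higher levels were found for 7 of them in microglia (6.63% of all genes) and for 3 in BMDM (8.24% of all genes). In Malat1-retaining wells the median was 0.12, toward BMDM. The lipoprotein lipase Lpl was at 266 CPM (246 to 287) and 884 CPM (813 to 960), the fatty acid carrier Fabp5 at 446 and 905 CPM, and the protease inhibitor Cst7 at 83.6 and 353 CPM. Fabp5 turned to BMDM when only Malat1-retaining wells were used (log2 0.96), and in microglia 11.2% of its counts came from those wells. The aspartic protease Ctsd was at 3810 and 9666 CPM. Gpnmb was higher in BMDM pooled, at 195 and 80.1 CPM, though its wells were nearly as frequent in both plates (8.78% and 7.95%). Lyz2, which has a near-identical neighbour in Lyz1 and is therefore uncertain, was at 1145 and 1003 CPM.

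Of 11 lipid handling genes tested, 6 were higher in BMDM (55.4% of all genes tested) and 5 in microglia (44.6%). Their median of 0.07 became -0.18 after thinning. Apoe, the leading lipid carrier of macrophages, was at 33654 and 30823 CPM and in nearly every thinned well of both plates (99.6% and 100%). Apoc2, the activator of lipoprotein lipase, was at 292 and 61.6 CPM, whereas its neighbour Apoc1 was at 57.7 and 156 CPM and Lpl itself was also higher in microglia. Cathepsin and lysosome genes were mostly even, with a median of -0.02 over all 18. Ctsb was at 10648 (10521 to 10776) and 10657 CPM (10407 to 10910), and Ctss at 4000 and 4023 CPM, intervals that overlap. Among the exceptions were Ctsc, an activator of granule proteases, at 1275 and 513 CPM, and Ctsd in the other direction.

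Complement genes lay on both sides. The C1q subunits, made by microglia in quantity, were higher in microglia by CPM: C1qb was at 3133 and 7005 CPM, C1qa at 1824 and 3590 CPM and C1qc at 2225 and 4045 CPM. Per spike-in count all 3 would turn to BMDM. The alternative pathway genes Cfb (141 and 20.03 CPM) and Cfp (222 and 40.1 CPM) were higher in BMDM. Cd93, a lectin-like receptor of monocytes and endothelium, was at 548 CPM (519 to 578) and 26.2 CPM (15.3 to 41.9). The list median over 11 tested genes was -0.60. Fc receptors and adaptors had a median of 0.22 over 8, with the inhibitory receptor Fcgr2b at 451 and 73.9 CPM and the activating receptor Fcgr3 at 542 and 786 CPM. Pattern recognition receptors had a median of 0.28 over 13 genes (-0.11 in Malat1-retaining wells), with Clec4n at 214 and 64.7 CPM and the RNA sensor Tlr3 at 33.4 and 133 CPM.

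Several programs of general metabolism and stress were close by pooled CPM. Oxidative phosphorylation genes had a median of 0.12 over 17, and ribosomal protein genes 0.22 over 18, with none past 2-fold in either list. After thinning the medians were -0.05 and -0.02. In Malat1-retaining wells they were 0.66 and 0.65, toward BMDM. Glycolysis genes had a median of -0.25 over 12, and Pkm was at 1136 and 2029 CPM and Gapdh at 667 and 1147 CPM. Both were concentrated in the wells with little Malat1, which held 74.6% of the microglia counts of Gapdh. In Malat1-retaining wells the glycolysis median was 0.48, and Gapdh itself turned to BMDM (log2 0.16). Antioxidant genes had a median of -0.40 over 13, or 0.055 in Malat1-retaining wells; the metallothionein Mt2 was at 43.0 and 233 CPM, and 58.5% of the Gstm1 counts of the microglia plate came from 1 well. Heat shock chaperones had a median of -0.18 over 9, or -0.54 in Malat1-retaining wells. Dnajb1 was at 71.7 and 271 CPM. Hspa1a, which shares reads with its near-identical copy Hspa1b, was at 35.0 and 196 CPM.

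Radiation damages DNA and activates p53, and both plates came from irradiated brains, so this compares the sorts and not irradiation. Of 15 p53 targets, 7 reached 50 CPM and none was 2-fold apart. The median was -0.18 and became 0.08 after thinning. Summed over all 15, levels were 1737 CPM in BMDM and 2731 CPM in microglia. In Malat1-retaining wells the sums were 1787 and 4054 CPM, and in the other wells 1389 and 1382 CPM. Cdkn1a, the cell cycle inhibitor p21, was at 1083 CPM (1043 to 1125) and 1973 CPM (1867 to 2085) and in 57.6% and 52.3% of thinned wells. Mdm2, which degrades p53, was at 94.3 and 153 CPM. Only Parp1 of 17 DNA repair genes reached 50 CPM, at 87.9 and 33.9 CPM, so the DNA repair median of 1.26 is that of 1 gene. Of 20 replication and mitosis genes 4 reached 50 CPM, with a median of -0.07; Pcna was at 180 and 260 CPM. Checkpoint and costimulatory genes had a median of 0.14 over 7 (-0.22 in Malat1-retaining wells), led by the anti-phagocytic signal Cd47 at 316 and 109 CPM.

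Markers of other cells were low with 1 exception. The astrocyte list summed to 56.5 CPM among BMDM wells and 1333 CPM among microglia wells, and 1 microglia well with 17891 counts held 87.2% of those microglia counts; it also had 3 core microglia UMIs at 1000. Slc1a3 (3.98 and 466 CPM), Atp1b2 (1 count and 273 CPM) and Aldoc (10.3 and 279 CPM) had 88.8%, 87.6% and 86.2% of their microglia counts in 1 well. The median of the 6 tested astrocyte genes was -4.08 and -1.54 without that well. T and NK cell genes summed to 23.5 and 6.16 CPM, with 3 and 7 of 8 at 0, B cell genes to 13.5 and 1.54 CPM, neuron genes to 8.36 and 24.7 CPM and epithelial genes to 18.7 and 4.62 CPM. Oligodendrocyte genes summed to 125 and 173 CPM and endothelial and pericyte genes to 57.7 and 55.5 CPM. Hemoglobin (Beta-s) was at 1.59 and 91.4 CPM, with 91.6% of the microglia counts from 1 well.

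Neutrophil genes summed to 194 and 339 CPM, but the defining S100a8 was at 1.59 and 3.08 CPM and Lcn2 at 0 in both. Dendritic cell genes had a median of -2.50 over only 3 tested members, 1 of which (Siglech) is also on the microglia list. The defining dendritic genes were low after WBRT: Flt3 was at 28.3 CPM and 0 counts, Xcr1 at 15.5 CPM and 1 count, and Ccr7 at 1.19 CPM (3 counts) and 0 counts. Without WBRT the BMDM plate had 495 CPM of Ccr7, 144 CPM of Flt3 and 103 CPM of Xcr1.

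Set beside the plates without WBRT, the sort difference was alike in several of its leading genes. Of 3096 genes tested in both comparisons, which share no sample, the log2 ratios had a Pearson r of 0.68 as a description over genes. Without WBRT 392 of 3573 genes (11%) were at least 2-fold higher in BMDM and 249 (6.97%) in microglia, and at any size 51.5% were higher in BMDM and 48.5% in microglia. Of these, 130 were called toward BMDM in both comparisons (42.9% of the 303 and 33.2% of the 392) and 95 toward microglia in both (38.9% and 38.2%). Ccr2 had log2 ratios of 6.45 after WBRT and 6.30 without, and Runx3 5.03 and 4.41. MHC class II had medians of 4.57 and 4.28, and microglia identity -1.59 and -1.28. Cxcl13 had -2.99 and -2.91, from levels of 230 and 1862 CPM after WBRT and 685 and 5176 CPM without.

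Other gene groups stood further apart between the comparisons. S100 proteins and annexins had a median of 2.83 without WBRT, and S100a11 then was at 648 CPM in BMDM and at 0 counts in microglia. The recruited identity median was 3.45 without WBRT, and Lgals3, the exception after WBRT, was at 289 and 97.2 CPM. Ms4a7 in microglia was at 117 CPM after WBRT and 8.003 CPM without, and Vim at 281 and 29.7 CPM. Ifitm3, with 727 and 78.6 CPM after WBRT, was at 1257 and 846 CPM without. Ccl5, at 3.18 and 52.4 CPM after WBRT, was at 800 and 763 CPM without. Igf1 was at 119 and 285 CPM after WBRT and at 17.4 and 2.29 CPM without. Whether the sort difference depends on WBRT was not tested, with 1 plate per group.

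**Figure D5:**
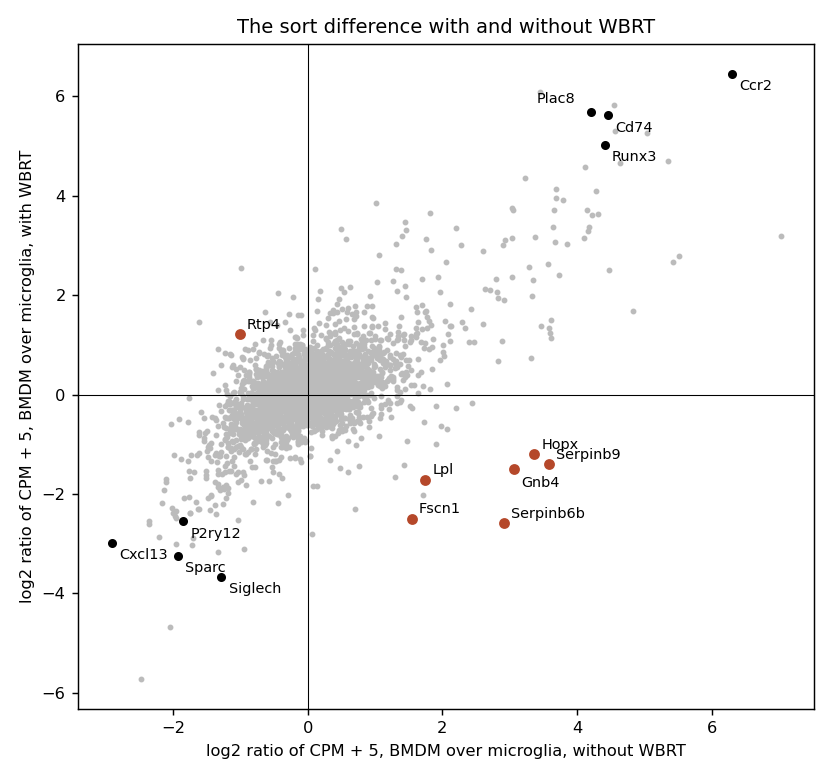
Each grey point is a gene of at least 50 CPM in 1 plate of each comparison; the x axis is the log2 ratio of CPM + 5 (BMDM over microglia) without WBRT and the y axis that with WBRT. Black points are genes picked by hand, some outside the identity lists, such as Ccr2 (6.30 and 6.45) and Cxcl13 (-2.91 and -2.99). Red points are genes that were at least 2-fold apart in opposite directions (some under 50 CPM after WBRT), such as Lpl (1.75 and -1.71) and Fscn1 (1.55 and -2.50).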

How the data were processed

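Myeloid cells were sorted singly into 384-well plates and processed after Muraro et al., per the labels' protocols. The authors deposited estimated counts per gene and well, not normalized; the values match, within 0.0051, a correction for coinciding UMIs out of 4096 identifiers, in 100% of nonzero values. The build is GRCm38, per the submitters' processing notes; the sources used here do not name the aligner, counter or annotation.

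Wells with at least 1000 counts outside ERCC and mitochondrial rows and an ERCC share under 50% were kept; 15 microglia wells were left out for ERCC alone. Kept wells total 2513025 (BMDM) and 649107 (microglia) counts, so 3 counts, the floor, are 1.19 and 4.62 CPM. Counts were pooled per plate over all endogenous rows (Rn45s, at 16457 and 19716 CPM, was not read as biology). The log2 ratio uses CPM + 5, which understates differences of low genes; called means at least 2-fold among genes of at least 50 CPM in 1 plate. Intervals are exact Poisson, conditional or Clopper-Pearson, at 95%. Intervals of log2 ratios, used for list members and to judge whether a value moved, pair opposite ends of the Poisson intervals of the 2 plates. They are therefore wider than 95% intervals of a ratio. All intervals treat transcripts of a well as independent. Thinning to 1000 UMIs left out no kept well; 1 thinned UMI is 3.82 and 6.62 CPM. Python 3.11.15, numpy 2.4.6, scipy 1.17.1 and edgeR 4.0.16 (TMM factors only) were used, and the code was tested on simulated data.

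Of 557 list symbols, 35 were not found and 5 were matched by a RefSeq synonym (GRCm38.p6). Named genes were the 20 highest and 20 lowest ratios (with a UMI in 10% or more of the kept wells where higher, Poisson intervals apart, at least 2-fold after thinning, without mitochondrial, ribosomal and predicted genes), up to 6 members of each of 32 role lists, all identity genes, up to 3 of each of 11 lists of other cells, the 10 most abundant genes the 10 largest differences from the comparison without WBRT, and genes past 2-fold that turn when thinned; further list members are given to describe a list and were chosen after their values were seen. Members and lists were chosen with earlier results of these data known. Alternatives covered well and gene filters, thinning, weights, pseudocounts, scaling and sets of wells left out. Some list members are counted in their lists but not reported here by name.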

Additional observations from a re-analysis of the deposited data

Results flagged for a closer look

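In 7 named genes the BMDM over microglia difference was at least 2-fold after WBRT and at least 2-fold the other way without WBRT. The difference between the comparisons was not tested, and each group is 1 plate. Given as the log2 ratio after WBRT minus that without, it was -5.50 for Serpinb6b, -4.98 for Serpinb9, -4.57 for Hopx, -4.57 for Gnb4, -4.04 for Fscn1, -3.46 for Lpl and 2.22 for Rtp4. Fscn1, an actin bundler of mature dendritic cells that microglia also express, was at 50.6 CPM among BMDM wells and 308 CPM among microglia wells after WBRT, and at 778 and 263 CPM without. Serpinb9, a granzyme B inhibitor, was at 9.15 and 32.3 CPM after WBRT and 123 and 5.72 CPM without. Its relative Serpinb6b was at 2.79 and 41.6 CPM after WBRT and 102 and 9.15 CPM without. Both were under 50 CPM in each plate after WBRT, and 37.05% of the Serpinb6b counts of 1 of these plates came from 1 well. Ccr7, a gene of migrating dendritic cells, was at 495 CPM in the BMDM plate without WBRT and 1.19 CPM in that with WBRT; the part of dendritic wells in these values was not tested. Lpl was at 266 and 884 CPM after WBRT and at 307 and 88.1 CPM without. Rtp4, an interferon-induced gene, was at 85.2 and 33.9 CPM after WBRT and 76.6 and 159 CPM without. Gnb4 rested on 7 and 11 counts after WBRT and pointed to BMDM when thinned (log2 1.34), and 94.3% of the Hopx counts of the microglia plate came from 1 well, without which the Hopx log2 ratio was 1.93 after WBRT.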

How the results depend on the processing

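Alternatives other than the 2 named below as chosen after seeing the data were set out with earlier results known. Of 235 named genes of at least 50 CPM, 40 kept direction and size within their counting interval under each alternative, 13 that were past 2-fold turned, and 182 moved in size, sign or both. At any size 48 changed sign under at least 1 alternative, 35 of them under 2-fold pooled; 11 of these did so when thinned and 21 without wells low in Malat1. The identity lists and MHC class II kept their direction under every alternative here, except that microglia identity was 0.78 per ERCC count of the median well. Below, turned genes are those past 2-fold pooled. With every well thinned to 1000 UMIs, 618 genes were called toward BMDM and 370 genes were called toward microglia. These values rest on 262000 UMIs in BMDM and 151000 UMIs in microglia, so their counting error is larger than that of pooled values. No interval is given for thinned ratios, and thinning also weights every well alike. List medians there were chemokine receptors 0.96, actin 0.11, MHC class II 3.78, pattern receptors 0.65, cytokines 0.077, iron -0.81, immediate early 0.46, noncoding RNAs 1.27, ribosomal -0.024, astrocytes -2.92. There, log2 ratios turned: Cdc42ep4 to 0.61, Hilpda to -0.39, Hopx to 0.29, Kcnk6 to 0.13, Myof to -0.053, Nfkbia to 0.077, Pcsk7 to 0.46, Pde1b to 0.11, Prune2 to 0.071, Scamp5 to 0.071, Sirt1 to 0.046, Smad3 to 0.039. With genes of at least 20 CPM, 536 genes were called toward BMDM and 505 genes were called toward microglia. List medians there were lipid -0.28, DNA repair 0.26, dendritic cells -0.29. With genes of at least 100 CPM, 170 genes were called toward BMDM and 143 genes were called toward microglia. List medians there were MHC class II 4.93, interferon 1.84, matrix 0.58, dendritic cells -3.08, astrocytes -5.68. With at least 3000 counts per well (226 and 56 wells), 380 genes were called toward microglia. List medians there were chemokine ligands 0.86, MHC class II 5.31, pattern receptors -0.0049, cytokines -0.33, lipid 0.29, iron 0.14, immediate early -0.69, disease-associated -0.30, noncoding RNAs 0.19, ribosomal 0.44. Without wells under 1000 CPM of Malat1, 560 genes were called toward microglia. List medians there were recruited identity 3.70, lineage factors -0.34, adhesion -0.22, S100 and annexins 1.93, actin 0.79, MHC class II 5.59, pattern receptors -0.11, scavenger 1.04, lysosome 0.13, lipid 0.57, iron 0.36, glycolysis 0.48, oxidative phosphorylation 0.66, immediate early -1.09, heat shock -0.54, disease-associated 0.12, noncoding RNAs -0.11, ribosomal 0.65, astrocytes -4.93. There, log2 ratios turned: Fabp5 to 0.96. Malat1 is itself on the noncoding RNA list, so the median of that list is not independent of this choice of wells. Without wells with more UMIs of the other identity list, which leaves 100 BMDM wells and likewise widens identity gaps by its choice, 381 genes were called toward microglia. List medians there were microglia identity -2.50, chemokine ligands -1.20, adhesion -0.92, MHC class II 5.08, cytokines -1.35, scavenger 0.0041, lysosome -0.26, lipid -0.52, immediate early -0.69, disease-associated -0.85, noncoding RNAs 0.97, dendritic cells -5.22. Without wells marked for the other sort, an alternative chosen after seeing the data, wells were left out by genes of the identity and MHC class II lists, so wider gaps there follow from the choice; list medians were microglia identity -2.05, MHC class II 5.41, cytokines -0.85, dendritic cells -3.54. With the mean of the wells' CPM, list medians were chemokine receptors 0.36, MHC class II 4.01, pattern receptors 0.71, cytokines -0.29, lysosome -0.19, complement -0.24, lipid -0.35, iron -0.64, immediate early 0.49, noncoding RNAs 1.19, ribosomal -0.023, astrocytes -2.58. There, log2 ratios turned: Hopx to 0.38. Without the top well of each gene, list medians were MHC class II 5.06, noncoding RNAs 0.46, astrocytes -1.59. There, log2 ratios turned: Hopx to 1.88. With a pseudocount of 1, list medians were astrocytes -5.59. With a pseudocount of 20, list medians were astrocytes -2.76. Without the astrocyte-marked well, also chosen after seeing the data, list medians were astrocytes -1.54. There, log2 ratios turned: Hopx to 1.93. Per ERCC count the median of all genes was 1.64 in place of 0.08. TMM factors, no ERCC limit, a minimum of 500 counts per well, and totals without mitochondrial rows and Rn45s moved no list median beyond its interval. The cause of these shifts was not tested. No paired analysis was possible because each group is 1 plate. Depth limits genes near 1.19 CPM in BMDM and 4.62 CPM in microglia.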

Other observations

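Opposite directions past 2-fold were also seen in genes outside the rule for named genes, chosen here after their values were seen. Ccnd1, a cyclin of the G1 phase, was at 116 CPM among BMDM wells and 378 CPM among microglia wells after WBRT and at 229 and 90.3 CPM without. Tuba1a, an alpha tubulin, was at 39.0 and 175 CPM after WBRT and 142 and 40.0 CPM without, with 47.1% of its microglia counts after WBRT from 1 well. Samsn1, an adaptor of immune cells, was at 47.4 and 134 CPM after WBRT and 228 and 81.2 CPM without. Cd300lf, an inhibitory receptor, was at 64.1 and 20.03 CPM after WBRT and 110 and 347 CPM without, and Oasl1 was at 26.3 CPM and 2 counts after WBRT and 65.6 and 143 CPM without. These comparisons have no replicate and were not tested.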
